A study of Mus musculus with 4 samples.

Results

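Matrix proteases, their inhibitors and the enzymes that modify collagen were examined in meningeal lymphatic endothelial cells of aged mice. The 54 genes were taken by name: each row of the deposited table named as a matrix metalloprotease, an ADAMTS or ADAMTS-like protein, a TIMP, a serpin or cystatin C, a plasminogen activator, a proprotein convertase, an HtrA protease, a procollagen-trimming protein, a prolyl or lysyl hydroxylase, a lysyl oxidase or a hyaluronidase. They are 54 of the 9114 genes of the table, and all 54 were among the 9063 tested. Pcsk2os1, a noncoding antisense RNA, came in by its name.

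The cells came from male C57BL/6J mice aged 20 to 24 months. AAV1 vectors had been given into the cisterna magna 4 weeks before, in 5 µL and at the same titre in both groups. In the mVEGF-C group the vector was AAV1-CMV-mVEGF-C, which drives mouse VEGF-C, and in the eGFP group it was AAV1-CMV-eGFP, which drives a fluorescent protein. The CMV promoter is not limited to 1 cell type, so the vector does not define which cells made VEGF-C. The sort kept singlets that were DAPI-, CD45-, CD31+ and PDPN+. Each group had 2 libraries, each of cells pooled from 10 mice, so single mice cannot be told apart.

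The matrix around a vessel is built and cut by these enzymes. Matrix metalloproteases (MMPs) and ADAMTS proteases cleave collagens and proteoglycans and are held in check by TIMPs, while serpins and cystatins mostly block serine and cysteine proteases. New collagen is hydroxylated and folded in the endoplasmic reticulum, trimmed outside the cell, and then cross-linked by lysyl oxidases. In the lymphatic system these classes also act on VEGF-C, a precursor that proprotein convertases and an ADAMTS protease cut before it fully activates its receptor.

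The recovered depth was 25610683 to 28632461 reads per library. All 10 lymphatic endothelial markers listed had a row, and their summed normalised counts were 484878 to 550019 in eGFP and 512422 to 626204 in mVEGF-C libraries. Of 10 fibroblast markers 7 had one, summing to 27857 (eGFP 2) and 69359 (eGFP 1) against 42425 to 75126 in mVEGF-C, and of 10 mural markers 4 did, at 20514 to 27997 against 13169 to 17574. Of 10 blood endothelial markers 7 had a row, at 20538 to 29322 against 33058 to 41730. Mrc1, which lymphatic cells can also express, was the 1 macrophage marker of 10 with a row. No marker of these lists was at 0 in a library; among mast cell and lymphocyte markers Cd3e was, in mVEGF-C 1. In pooled sorted cells, fewer cells of a type and less RNA per cell cannot be told apart.

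No member passed the test between the groups. limma called 0 of 54 at an adjusted p under 0.05, against 2.14% of the table (0.828% higher and 1.31% lower in mVEGF-C). Unadjusted, 4 members were under 0.05, namely Mmp13, Pcsk2os1, Mmp28 and Loxl2, against 11.8% of all genes. edgeR called 0 members and 1.61% of all genes, with 4 members unadjusted under 0.05 against 11.8%. DESeq2 called 0 members and 6.63% of all genes, with 7 members unadjusted under 0.05 against 16.7%. The smallest adjusted p was 0.116 in limma, for Mmp13, and 0.284 in edgeR and 0.0526 in DESeq2, both for Hyal3. The deposited rows had been limited by the spread between replicates, so these p-values are too small by an unknown amount.

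The groups did not overlap for 18 members (33.3%), against 39.2% of all genes tested. Of the 18, 10 were higher in both mVEGF-C libraries (18.5%, against 19.4% of all genes) and 8 were lower (14.8%, against 19.8%). The share of members whose libraries separated was thus not above that of the table. Fold changes, given here as mVEGF-C minus eGFP on the log2(normalised count + 1) scale, were above 0 for 33 members (61.1%, against 49.5%), or for 28 with the libraries rescaled to the same total. The median was 0.12, against -0.02 over all genes. With that rescaling it was 0.04, against -0.10 over all genes, so rescaling lowered the members and the table alike.

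**Figure D1:**
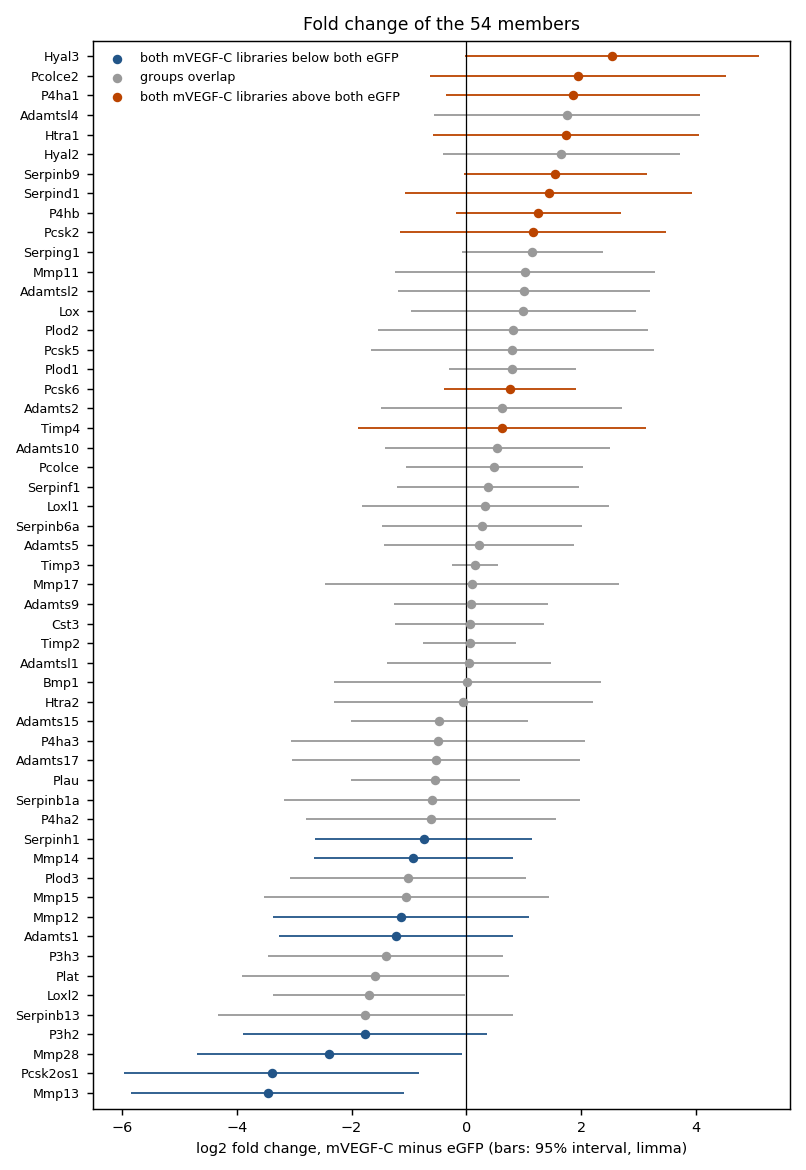
Log2 fold change of each of the 54 members, mVEGF-C minus eGFP, with its 95% interval from limma; colours mark members whose 2 groups did not overlap. The estimates run from -3.46 for Mmp13 to 2.53 for Hyal3, and no member was called.

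Mmp13 had the lowest fold change and lies beside Mmp12 on chromosome 9, so the stretches before their start sites are shown, with those of another metalloprotease gene, Mmp14, and of P4ha1, a collagen hydroxylase gene that was higher in both mVEGF-C libraries. Sequences are from RefSeq on GRCm38.p6, 5′ to 3′ on the gene's strand, which is plus for all 4, and end at the base before the start site. Capitals mark the AP-1 motif (TGACTCA or TGAGTCA), the TATA box (TATAAA) and the GC box (GGGCGG), each searched on both strands. The windows are chr9:7272264-7272513 for Mmp13, chr9:7347124-7347373 for Mmp12, chr14:54431348-54431597 for Mmp14 and chr10:59323046-59323295 for P4ha1. RefSeq gives Mmp12 a pair of starts: the window shown ends inside the annotated gene, and the other, chr9:7344147-7344380, which adjoins the annotated start, held none of these motifs.
Mmp13: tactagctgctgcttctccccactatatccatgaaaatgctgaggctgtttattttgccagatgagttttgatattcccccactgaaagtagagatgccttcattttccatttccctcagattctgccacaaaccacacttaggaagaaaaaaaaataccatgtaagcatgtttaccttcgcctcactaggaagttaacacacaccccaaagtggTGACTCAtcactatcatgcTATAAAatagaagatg
Mmp12: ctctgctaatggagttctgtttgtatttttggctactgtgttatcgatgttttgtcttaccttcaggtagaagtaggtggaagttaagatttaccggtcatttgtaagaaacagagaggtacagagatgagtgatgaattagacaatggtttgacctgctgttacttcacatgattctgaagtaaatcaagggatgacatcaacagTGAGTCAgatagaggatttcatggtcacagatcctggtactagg
Mmp14: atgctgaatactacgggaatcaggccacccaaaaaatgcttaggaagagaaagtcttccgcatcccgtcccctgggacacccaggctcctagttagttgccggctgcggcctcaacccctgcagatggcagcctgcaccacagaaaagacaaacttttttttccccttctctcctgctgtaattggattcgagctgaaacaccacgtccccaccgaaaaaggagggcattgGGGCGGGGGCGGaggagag
P4ha1: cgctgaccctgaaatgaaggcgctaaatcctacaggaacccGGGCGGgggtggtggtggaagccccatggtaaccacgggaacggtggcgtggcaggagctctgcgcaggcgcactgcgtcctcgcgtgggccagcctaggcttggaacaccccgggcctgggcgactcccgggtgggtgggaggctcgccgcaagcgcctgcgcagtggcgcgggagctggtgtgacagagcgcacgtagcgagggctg

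The AP-1 motif lay 35 bases before the start of Mmp13 and 44 before the inner of the Mmp12 starts, and Mmp13 also had a TATA box 16 bases before its start. In Mmp14, 2 adjoining GC boxes lay 19 and 13 bases before the start, and in P4ha1 1 lay 209 bases before it. RefSeq windows of up to 250 bases were at hand for 37 of the 54 members, 39 windows in all. The Mmp12 window that adjoins the annotated start had 234 bases. AP-1 was in 2 of the 39 (5.13%), that of Mmp13 and the inner one of Mmp12, against 3.47% of the 8132 windows of genes tested. The GC box was in 28 (71.8%, against 55%), the TATA box in 4 (10.3%, against 7.24%) and CCAAT in 9 (23.1%, against 34.1%). A match describes the letters and does not show a bound site.

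The leading inhibitor genes stood above the metalloprotease genes in level. Per kb of exon, Timp3, which encodes the TIMP that stays bound to the matrix, had the highest mean level of the 54, at 9285 normalised counts per kb, and ranked 24 of the genes tested. It had 67340 and 75908 normalised counts in eGFP against 86364 and 72862 in mVEGF-C libraries, so the groups overlapped. The difference was 0.15 ± 0.20 (SE; limma, adjusted p = 0.886) on the log2 scale, with a 95% interval of -0.25 to 0.55. Part of its exons overlaps Syn3 on the opposite strand.

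Timp2, which inhibits MMPs and takes part in activating pro-MMP2 together with MMP14, had 22671 and 15150 normalised counts in eGFP against 22181 and 16688 in mVEGF-C libraries. The pairs were almost alike, with a fold change of 0.05 ± 0.41 (SE; limma, adjusted p = 0.987) that turned to -0.03 once rescaled to the same total. Timp4 was low, at 118 and 98.3 against 214 and 128, with both mVEGF-C values on top. Timp1 was not analysed here.

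**Figure D2:**
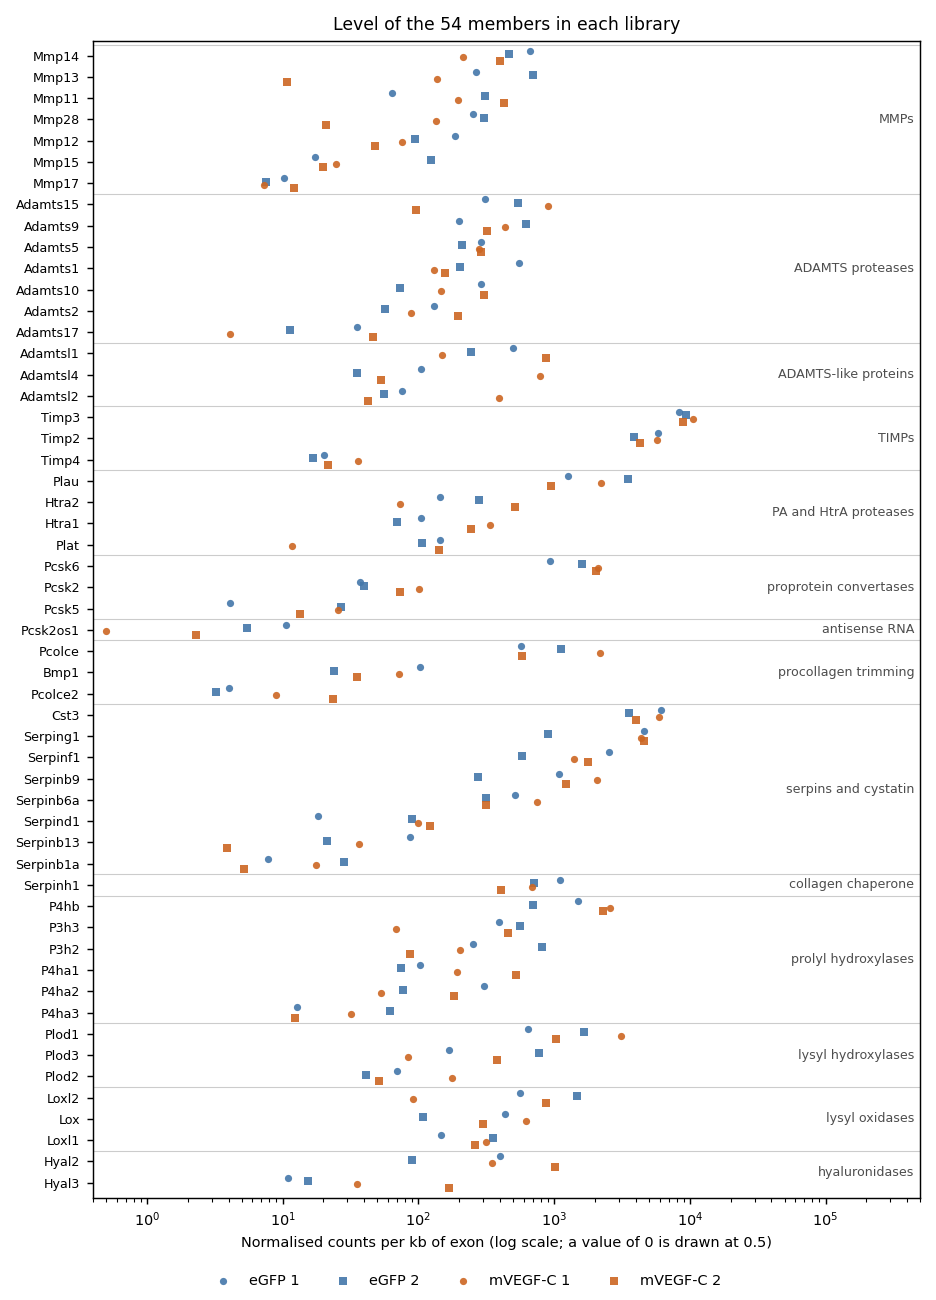
Normalised counts per kb of exon for each member in each library, on a log axis, ordered by role and by mean level within it; blue marks eGFP and orange mVEGF-C, circles replicate 1 and squares replicate 2. Timp3 leads at a mean of 9285 per kb, followed by Cst3 at 4931 and Timp2 at 4921.

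MMP genes leaned lower in mVEGF-C. Of the 7 with a row, 5 had fold changes below 0, with a median of -1.05 against -0.02 over all genes. In each alternative fit 5 or 6 were below 0, but these fits reuse the same libraries and are not independent support. The genes below 0 were not the same throughout: Mmp11 turned to -0.12 without eGFP 1 and Mmp15 to 0.37 without eGFP 2. In 4 of the 7 (57.1%) the mVEGF-C libraries lay wholly below the eGFP libraries, as they did for 19.8% of all genes. None was called.

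Mmp13 (chromosome 9, 7272514 to 7283331) encodes collagenase-3, which cleaves fibrillar collagen. It had 708 and 1879 normalised counts in eGFP against 366 and 28.8 in mVEGF-C libraries. Each mVEGF-C value was below each eGFP value, but the mVEGF-C libraries differed from each other by 3.62 on the log2 scale, more than the groups did. The means were 198 ± 239 in mVEGF-C and 1294 ± 828 in eGFP (SD, n = 2), a fold change of -3.46 ± 1.21 (SE; limma, adjusted p = 0.116). It was -5.28 without mVEGF-C 1, where the gene was called (limma, adjusted p = 0.0115), and -1.65 without mVEGF-C 2.

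Mmp28 (chromosome 11, 83440768 to 83463071), the gene for epilysin, had 979.6 and 1185 normalised counts in eGFP against 519 and 80.8 in mVEGF-C libraries. The eGFP pair was close and the mVEGF-C pair spread, and mVEGF-C 2 was the lowest library, as it was for Mmp13. The fold change was -2.39 ± 1.18 (SE; limma, adjusted p = 0.395). It shares exon bases with a gene on the opposite strand, and the strand setting of the counting is not given in the sources used here.

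Mmp14 (chromosome 14, 54431612 to 54445364) encodes the membrane-bound MT1-MMP, a collagenase of the cell surface, and had the highest level per kb of the 7. Its values were 3955 and 2769 normalised counts in eGFP against 1264 and 2403 in mVEGF-C libraries. The lower eGFP value lay just above the higher mVEGF-C value, and the fold change was -0.93 ± 0.89 (SE; limma, adjusted p = 0.802). Mmp12 (chromosome 9, 7344381 to 7369499), the macrophage elastase gene, had 1349 and 687 against 550.2 and 345, a fold change of -1.14 ± 1.14 (SE; limma, adjusted p = 0.813). Mmp12 lies 61.0 kb from Mmp13, and both were lowest in mVEGF-C 2. The sort kept CD45- cells. Of the 10 macrophage markers 9 had no row, and Mrc1 had 23299 to 32880 normalised counts over the libraries. The rows were preselected on replicate spread, so a missing row does not show absent expression. The cell source of the Mmp12 reads was not tested.

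Among the remaining MMP genes the groups overlapped. Mmp15, for a membrane-type MMP, had 93.1 and 669 normalised counts in eGFP against 135 and 108 in mVEGF-C libraries, high in eGFP 2 alone. Mmp11 (stromelysin-3) had 179 and 867 against 541 and 1183, lowest in eGFP 1. Mmp17, for a membrane-type MMP held by a lipid anchor, was low throughout, at 48.1 to 80.8.

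**Figure D3:**
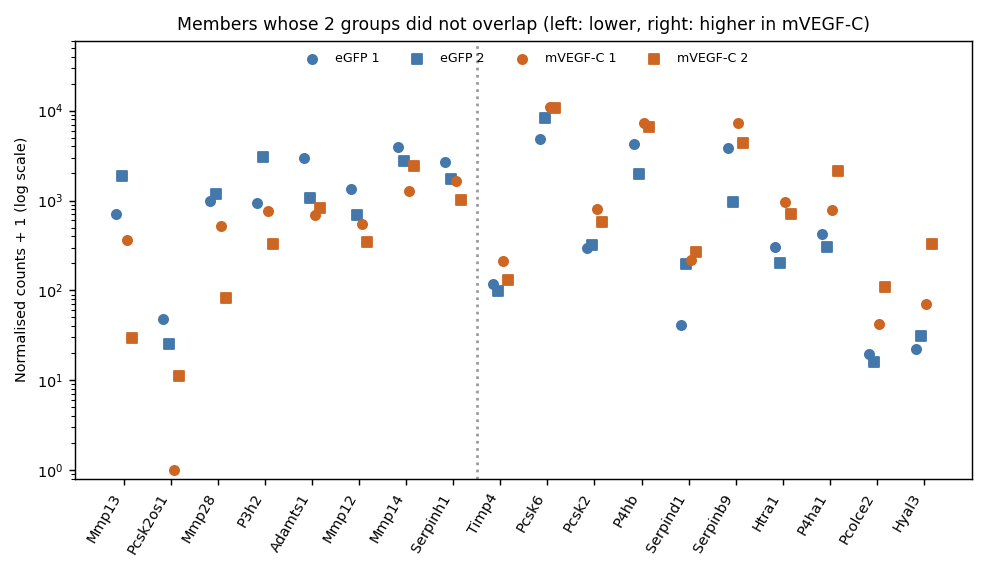
Normalised counts plus 1 on a log axis for the 18 members whose 2 groups did not overlap; blue marks eGFP and orange mVEGF-C, circles replicate 1 and squares replicate 2. In 8 members, 4 of them MMP genes, both mVEGF-C libraries were lower, and in 10 both were higher.

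ADAMTS proteases, which cut proteoglycans and procollagens, showed no common direction: of 7, 4 had fold changes above 0 (3 with the libraries rescaled to the same total), and 1 (14.3%, against 39.2% of all genes) had groups that did not overlap. That was Adamts1 (chromosome 16, 85793827 to 85803113), for a protease of versican and aggrecan. It had 2937 and 1072 normalised counts in eGFP against 687 and 835 in mVEGF-C libraries, with the eGFP values the more spread, and a fold change of -1.23 ± 1.04 (SE; limma, adjusted p = 0.752). Its neighbour Adamts5, an aggrecanase gene 53.1 kb away, was among the steadiest members, at 3124 and 2281 against 3030 and 3151.

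Adamts9, for a versican protease, had 3027 and 9318 normalised counts in eGFP against 6578 and 4813 in mVEGF-C libraries, and Adamts10 had 2388 and 601 against 1210 and 2500. The groups overlapped for both. Of these proteases, Adamts15 and Adamts17 differed most within the mVEGF-C pair. Adamts15 had 3208 and 5600 against 9346 and 999, and Adamts17 had 275 and 88.7 against 32.1 and 359. The ADAMTS-like proteins keep the ancillary domains of the family but have no protease domain, and single libraries stood out in their genes. Adamtsl4 had 438 and 148 against 3287 and 222 and Adamtsl2 had 609 and 444 against 3170 and 340, both highest in mVEGF-C 1. Adamtsl1 had 6350 and 3147 against 1912 and 11154, lowest in that library and highest in mVEGF-C 2.

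Set against each other, TIMP and metalloprotease transcripts gave a ratio that separated the groups. The 7 MMP and 7 ADAMTS genes summed to 3269 and 3726 normalised counts per kb in eGFP against 2774 and 2352 in mVEGF-C libraries. The families within this sum were not compared by a test, and no gene of either was called. Both mVEGF-C libraries were lower for 4 of the 7 MMP genes (57.1%) and 1 of the 7 ADAMTS genes (14.3%), against 19.8% of all genes. Their median fold changes were -1.05 for MMP and 0.08 for ADAMTS genes. The 3 TIMP genes summed to 14108 and 13226 against 16334 and 13252, where the groups overlapped. The ratio of TIMPs to metalloproteases was 4.32 and 3.55 in eGFP against 5.89 and 5.63 in mVEGF-C. With Timp3 alone above the line it was 2.53 and 2.50 against 3.82 and 3.80.

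The ratio does not move with the scaling of a library, since both sums come from it. Both mVEGF-C libraries exceeded both eGFP libraries in 14 of 14 cases when each protease was left out in turn. These cases share the TIMP sum and most of the proteases, so they are not independent support. The order also held in sums not divided by length (3.83 and 3.30 against 4.33 and 4.79). With Timp3 left out of the TIMP sum, the ratio was 1.786 and 1.048 in eGFP against 2.065 and 1.83 in mVEGF-C libraries. These sums were formed with the values known and carry no test, and 39.2% of single genes separate the groups in 1 direction or the other. A transcript ratio is not a ratio of active proteins. The summed mural markers, given above, also separated the groups, being lower in mVEGF-C, and so did the blood endothelial markers, being higher. Single markers did not all follow their sum. Of 4 mural markers 1 had a fold change above 0 (Pdgfrb, 0.94). The groups overlapped for Pdgfrb, Rgs5 and Kcnj8, so that Abcc9 alone was lower in both mVEGF-C libraries. Of 7 blood endothelial markers 6 were above 0, but among these Plvap alone was higher in both mVEGF-C libraries. Vwf was at -0.83 and lower in both. The part of either marker set in the ratio was not tested.

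**Figure D4:**
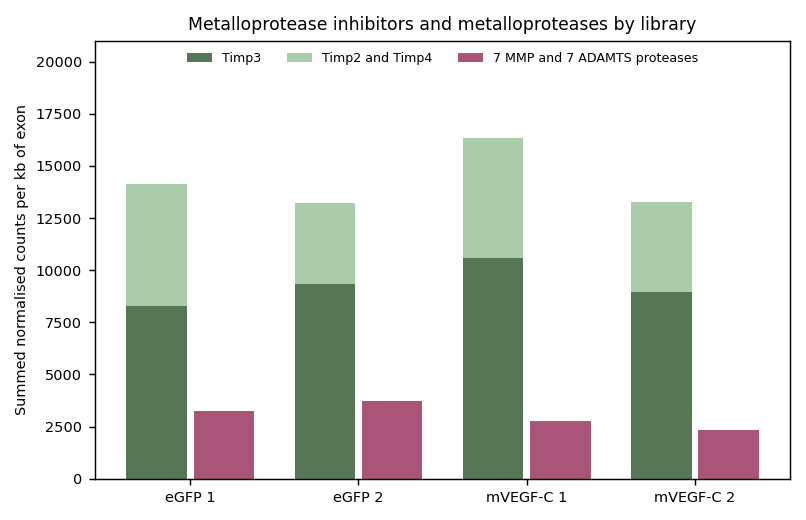
Summed normalised counts per kb of exon in each library for the 3 TIMP genes (Timp3 in the darker part) and the 14 metalloprotease genes. TIMP genes exceeded the proteases in each library, by 4.32 and 3.55 times in eGFP and 5.89 and 5.63 times in mVEGF-C.

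Neither the proprotein convertases nor the candidate VEGF-C processing enzymes were called. Of the convertases, Pcsk5 alone was listed as such a candidate. Pcsk6 (chromosome 7, 65861734 to 66050386), the gene of the convertase PACE4, had the highest level per kb of the 3 convertases with a row. It had 4827 and 8373 normalised counts in eGFP against 10943 and 10635 in mVEGF-C libraries. The mVEGF-C values were nearly equal and above both eGFP values, and the fold change was 0.76 ± 0.59 (SE; limma, adjusted p = 0.709).

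Pcsk5, the gene of a convertase known to cut pro-VEGF-C, was low. It had 59.1 and 391 normalised counts in eGFP against 368 and 193 in mVEGF-C libraries, with eGFP 1 lowest and eGFP 2 highest, and a fold change of 0.80 ± 1.26 (SE; limma, adjusted p = 0.906) that was -0.55 without eGFP 1. Pcsk2, known from neuroendocrine granules, had 294 and 316 against 795 and 581. Its pairs were tight and apart, at a fold change of 1.15 ± 1.18 (SE; limma, adjusted p = 0.823). All 3 convertases had fold changes above 0 (49.5% of all genes did). Of the 3, 2 were higher with groups that did not overlap (19.4% of all genes). Those 2, Pcsk6 and Pcsk2, were not listed as VEGF-C processing candidates. Furin, Pcsk7, Adamts3 and Adamts14 were not analysed here.

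The antisense RNA Pcsk2os1 (chromosome 2, 143535476 to 143547837), which overlaps the start of Pcsk2, had 47.5 and 24.6 normalised counts in eGFP against 0 and 10.2 in mVEGF-C libraries. A count of 0 in mVEGF-C 1 allows up to 3 reads, or 3.20 normalised counts, for counting error alone. Its fitted fold change of -3.39 ± 1.31 (SE; limma, adjusted p = 0.181) depends on the pseudocount. It was -5.14 without mVEGF-C 2, where the gene was called (limma, adjusted p = 0.0153). Without a known strand setting, reads of this RNA and of Pcsk2 cannot be told apart where they overlap.

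Adamts2, the procollagen N-proteinase gene, whose protein is related to the VEGF-C protease ADAMTS3, had 1212 and 530.2 normalised counts in eGFP against 822 and 1838 in mVEGF-C libraries. The groups overlapped, with a fold change of 0.62 ± 1.07 (SE; limma, adjusted p = 0.919). Ccbe1 encodes the scaffold that brings ADAMTS3 and VEGF-C together, and had 544 and 367 against 156 and 839.9, with the mVEGF-C values on either side of the eGFP values. Its fold change of -0.30 ± 1.20 (SE; limma, adjusted p = 0.972) had a 95% interval of -2.65 to 2.04, and its sign turned in edgeR and DESeq2, at 0.16 and 0.13.

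The plasminogen activators overlapped between the groups. Plau, the urokinase gene, had the highest level per kb among the protease genes, with 3017 and 8276 normalised counts in eGFP against 5273 and 2239 in mVEGF-C libraries. Its fold change was -0.54 ± 0.75 (SE; limma, adjusted p = 0.893), and 0.19 without eGFP 2. Plat, the tissue plasminogen activator gene, had 896 and 669 against 73.7 and 886, so that mVEGF-C 1 alone was low. Its fold change was -1.59 ± 1.19 (SE; limma, adjusted p = 0.691), and 0.19 without that library.

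Of the HtrA serine proteases, Htra1 (chromosome 7, 130936111 to 130985660), secreted into the matrix, had 304 and 202 normalised counts in eGFP against 973 and 701 in mVEGF-C libraries. The spread within each pair was small beside the distance between the pairs, and the fold change was 1.73 ± 1.18 (SE; limma, adjusted p = 0.643). The mitochondrial protease gene Htra2 had 428 and 826 against 217 and 1508, with the mVEGF-C values outside the eGFP values. It shares exon bases with neighbours on the opposite strand.

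Serpins and cystatin C gave 6 of 8 fold changes above 0 (5 with the libraries rescaled to the same total), but 3 of 8 without eGFP 2. Serping1, the C1 inhibitor gene, had 10682 and 2086 normalised counts in eGFP against 10175 and 10664 in mVEGF-C libraries, with eGFP 2 far below the rest. Its fold change of 1.14 ± 0.63 (SE; limma, adjusted p = 0.49) was -0.04 without eGFP 2. Serpinf1, the gene of the antiangiogenic factor PEDF, was also lowest in that library, at 6031 and 1375 against 3319 and 4185. Its fold change was 0.37 ± 0.81 (SE; limma, adjusted p = 0.94), and -0.69 without it.

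The fibroblast marker sum was lowest in eGFP 2 as well, at 27857 against 69359 in eGFP 1, but its single markers were divided. Col1a1, Col1a2, Col3a1 and Fbln1 were lowest in eGFP 2, while Dcn, Pdgfra and Col6a1 were lowest in mVEGF-C 2. The part of fibroblast markers in the serpin values was not tested. Of the 54 members, 19 (35.2%) had their lowest value in eGFP 2, against 27.4% of all genes tested. Serpinb9 (chromosome 13, 33003250 to 33017957), the granzyme B inhibitor gene, had 3796 and 964 normalised counts in eGFP against 7249 and 4316 in mVEGF-C libraries. The mVEGF-C values lay above the eGFP values, eGFP 2 being lowest. The fold change was 1.55 ± 0.81 (SE; limma, adjusted p = 0.448), and 0.56 without eGFP 2.

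Serpind1, the heparin cofactor II gene, had 40.3 and 196 normalised counts in eGFP against 219 and 269 in mVEGF-C libraries, with a narrow gap between the groups and a fold change of 1.43 ± 1.28 (SE; limma, adjusted p = 0.77). Cst3, the gene of the cysteine protease inhibitor cystatin C, was second to Timp3 per kb and had 7778 and 4553 against 7543 and 5096. Its groups overlapped, at a fold change of 0.06 ± 0.66 (SE; limma, adjusted p = 0.993) with a 95% interval of -1.24 to 1.35 that turned to -0.02 once rescaled to the same total. Serpinb6a ran from 1693 to 4068 over the 4 libraries, and Serpinb1a and Serpinb13 were low, at 12.1 to 65.2 and 6.50 to 146.

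Collagen hydroxylation genes differed among themselves. P4hb (chromosome 11, 120560298 to 120573253) encodes protein disulfide isomerase, which is also the beta subunit of collagen prolyl 4-hydroxylase. It had 4269 and 1998 normalised counts in eGFP against 7365 and 6562 in mVEGF-C libraries. The mVEGF-C pair was tight and above both eGFP values, with a fold change of 1.25 ± 0.73 (SE; limma, adjusted p = 0.546).

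P4ha1 (chromosome 10, 59323296 to 59373304), the gene of a catalytic alpha subunit of the same enzyme, stood in the same order. It had 427 and 307 normalised counts in eGFP against 794 and 2154 in mVEGF-C libraries, with mVEGF-C 2 well above the rest, and a fold change of 1.85 ± 1.13 (SE; limma, adjusted p = 0.567). Its window above held 1 GC box. The groups overlapped for the other alpha subunits: P4ha2 had 1888 and 478 against 333 and 1151, and P4ha3 had 40.3 and 195 against 100.4 and 39.0.

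For P3h2 (chromosome 16, 25959288 to 26105784), a prolyl 3-hydroxylase gene, the order was the reverse. It had 948 and 3023 normalised counts in eGFP against 755 and 324 in mVEGF-C libraries, highest in eGFP 2, and a fold change of -1.77 ± 1.09 (SE; limma, adjusted p = 0.568). P3h3 had 1551 and 2208 against 268 and 1808, where mVEGF-C 1 alone was low. The collagen chaperone gene Serpinh1 (HSP47), a serpin without inhibitor function, had 2714 and 1738 against 1669 and 1002. Its groups were separate by a small margin, with a fold change of -0.75 ± 0.97 (SE; limma, adjusted p = 0.878).

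Lysyl hydroxylases, which prepare collagen for cross-linking and sugar addition, overlapped in all 3 cases. Plod1 was the highest per kb, with 4347 and 11219 normalised counts in eGFP against 21003 and 7023 in mVEGF-C libraries. Its fold change was 0.80 ± 0.56 (SE; limma, adjusted p = 0.659), and 0.01 without mVEGF-C 1. Plod2 had 378 and 222 against 949 and 275, highest in mVEGF-C 1, and Plod3 had 767 and 3498 against 379 and 1725, highest in eGFP 2.

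Outside the cell, the procollagen C-proteinase gene Bmp1 had 914 and 214 normalised counts in eGFP against 642 and 311 in mVEGF-C libraries, with the mVEGF-C values inside the eGFP range. Pcolce, for an enhancer of this proteinase, had 2197 and 4305 against 8360 and 2210, highest in mVEGF-C 1. Pcolce2, for a related enhancer, was near the lower end of the 54, at 18.8 and 15.0 against 41.7 and 109, with both mVEGF-C libraries on top.

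Lysyl oxidases, which cross-link collagen and elastin, overlapped in all 3 cases as well. Lox had 2078 and 514 normalised counts in eGFP against 2956 and 1433 in mVEGF-C libraries, lowest in eGFP 2. Loxl1 lay between 485 to 1179. Loxl2, whose protein acts on basement membrane collagen, had 3060 and 8000 against 495 and 4681, so that mVEGF-C 1 alone was low.

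The hyaluronidase genes Hyal2 and Hyal3 lie 8.0 kb apart on chromosome 9, and their family cleaves hyaluronan, the ligand of the lymphatic receptor LYVE1. Hyal3 (chromosome 9, 107580818 to 107587359) had 21.5 and 29.9 normalised counts in eGFP against 69.4 and 327 in mVEGF-C libraries. The eGFP pair was tight and low, mVEGF-C 2 was far above mVEGF-C 1, and the fold change of 2.53 ± 1.31 (SE; limma, adjusted p = 0.434) was the highest of all members. Its exons overlap those of Hyal1 and Naa80 on the same strand, so its reads may be shared with them. Hyal2 had 1313 and 298 against 1154 and 3352, with groups that overlapped.

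The median spread between replicates exceeded the median difference between the groups. A difference between single libraries varies more than a difference between group means, so these medians are not on a like scale. Over the members the median absolute difference between the 2 libraries of a group was 1.14 on the log2 scale in eGFP and 1.19 in mVEGF-C, against 0.94 and 1.07 over all genes. The median absolute fold change of the members was 0.87, against 0.79 over all genes. In 9 members the mVEGF-C libraries differed by more than 3, led by Adamtsl4 at 3.88, and in 12 the eGFP libraries differed by more than 2. On recovered reads no row of the table differed by more than 2.83 in eGFP or 4.24 in mVEGF-C, a limit of the deposited rows, so the spread of the groups is not compared. Both pairs lay within 0.5 for 3 members, Timp3, Adamts5 and Pcsk2. In 29 of the 54 the fold change took the other sign when some library was left out.

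**Figure D5:**
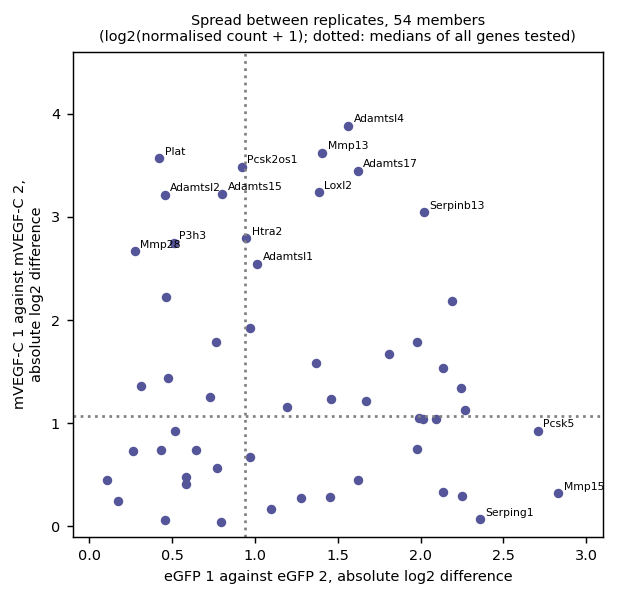
Absolute log2 difference between the 2 eGFP libraries (horizontal) and the 2 mVEGF-C libraries (vertical) for each of the 54 members, with dotted lines at the medians of all genes tested (0.94 and 1.07). The 9 members above 3 on the vertical axis include Adamtsl4, Mmp13 and Plat. The deposited rows were limited to a smaller spread in eGFP than in mVEGF-C, so the axes are not comparable.

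A wider list of matrix turnover genes held 78, of which 51 were tested and 0 were called by limma in either direction, with 4 unadjusted under 0.05 against 11.8% of all genes. Values above 0 were found for 26 of the 51, and the median fold change over all 51 was 0.06. In 14 of the 51 the groups lay apart (27.5%, against 39.2% of all genes), of which 6 were higher and 8 lower. The lowest was Spock2, of the testican proteoglycans, at 1691 and 1995 normalised counts in eGFP against 615 and 58.5 in mVEGF-C libraries, with mVEGF-C 2 lowest. Its fold change was -3.26 ± 1.15 (SE; limma, adjusted p = 0.121), and -4.95 and called without mVEGF-C 1 (limma, adjusted p = 0.0141). The highest was Tmem38b, for an ion channel of the endoplasmic reticulum needed for collagen production in bone. It had 64.5 and 22.5 against 235 and 659.6, a fold change of 3.33 ± 1.28 (SE; limma, adjusted p = 0.181) that DESeq2 called (adjusted p = 0.0108).

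Named after their values were seen, 2 genes of plasminogen binding at the cell surface were lower in both mVEGF-C libraries, as were 19.8% of all genes. They belong to a list of serine protease and coagulation genes with 12 tested, of which 6 had fold changes above 0. In that list the groups lay apart for 4 genes (33.3%, against 39.2% of all genes), 1 higher and 3 lower. S100a10, for the partner of annexin A2, had 929.5 and 1042 against 108 and 228, a fold change of -2.64 ± 1.20 (SE; limma, adjusted p = 0.316) that DESeq2 called (adjusted p = 0.0355). The plasminogen receptor gene Plgrkt had 2819 and 5838 against 2334 and 653, a fold change of -1.72 ± 0.90 (SE; limma, adjusted p = 0.451). Anxa2 itself had 1860 and 1362 against 1821 and 2838, and its groups overlapped. Vegfc and Reck were not analysed here.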

How the data were processed

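Gene expression was measured in 4 pooled libraries made from linearly amplified RNA, per the labels' protocols. FastQC, Trimmomatic, Salmon, DESeq2 and mm10 are named, without versions or order, per the submitters' processing notes. The authors deposited 1 table of normalised counts, a signal in which the gene counts of a library are divided by 1 factor. All values were whole multiples of the smallest value of their library (100% within 0.001), so reads were recovered by division. On these reads the SD of log2(reads + 1) within a group reached at most 2.000 in eGFP and 2.999 in mVEGF-C, so the rows were preselected on replicate spread and p-values are too small. Where replicates shared handling, p-values measure technical spread only.

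R 4.3.3 and limma 3.58.1 (eBayes with trend, two-sided) compared log2(normalised count + 1) between the groups over the 9063 genes whose mean was 10 or more. Calls were made at a Benjamini-Hochberg adjusted p under 0.05 over all 9063. The prior degrees of freedom were infinite, so a gene's own spread did not enter its p-value. The fit was tested on simulated counts that had no preselection on replicate spread. That test therefore does not cover the p-values of these rows, and its outcome is not reported here. edgeR 4.0.16 and DESeq2 1.42.0 on the recovered reads, rescaled libraries, other filters and pseudocounts, a replicate block and libraries left out in turn were alternatives. Coordinates (1-based) and exon lengths (union of exons) are from GENCODE vM21 on GRCm38, which is mm10, and 9024 rows matched. Of the members, 18 share exon bases with another gene. A further 1146 rows carry Ensembl identifiers in place of names, and 1 of these has a symbol of the same kind but is no member.

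Full statistics are given for members called, the 8 highest and 8 lowest fold changes (mean 50 or more, groups apart, 7 found on the low side), the 10 highest levels per kb, candidate VEGF-C processing enzymes and members at 0 in a library. The members and lists were chosen with earlier results of these data known.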

Additional observations from a re-analysis of the deposited data

How the results depend on the processing

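Of the 26 members with full statistics, 19 kept the sign of their fold change in all 12 alternatives. Rescaling to the same total and to the same upper quartile turned Timp2 to -0.030 and -0.020 and Cst3 to -0.024 and -0.015. Ccbe1 turned to 0.16 in edgeR and 0.13 in DESeq2. With 1 library left out, a lone library is assumed to vary like the other group. Fold changes that then turned sign ranged from -0.327 to 0.445 for Cst3, -0.237 to 0.345 for Timp2, -0.552 to 2.154 for Pcsk5, -3.376 to 0.194 for Plat, -1.268 to 0.188 for Plau, -0.694 to 1.438 for Serpinf1, -0.036 to 2.320 for Serping1 and -1.511 to 0.910 for Ccbe1.

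The number of members called was 0 in the 8 alternatives with all libraries and 0 to 1 with 1 left out (Mmp13 without mVEGF-C 1, Pcsk2os1 without mVEGF-C 2). Over all genes 194 were called, 75 higher and 119 lower. The count was 41 without a trend in eBayes (15 higher, 26 lower), 146 in edgeR (67 higher, 79 lower) and 601 in DESeq2 (283 higher, 318 lower). It ran from 5 (without eGFP 2) to 292 (without mVEGF-C 2) with 1 library left out, with 5 to 104 higher and 0 to 188 lower. The cause was not tested. The replicate block gave 203 genes and 0 members. Deviations of same-numbered libraries had a correlation of 0.00013, so no common deviation by number was seen. Whether same-numbered libraries were handled together cannot be read from this value. With 2 libraries a group an exact permutation test cannot go below 0.333.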
